A study of Mus musculus with 192 samples.

Results

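The reads that fall in the 3' untranslated region (3' UTR) of a gene were compared with those in its coding sequence (CDS), as both are counted in a table of the whole series. A gene was taken when its CDS row and its 3' UTR row each held at least 50 counts in every one of the 11 libraries. This was met by 218 of the 20067 genes that have both rows, while 1415 genes met a minimum of 10 and 25 genes a minimum of 200. The counts themselves therefore chose the members, and their high level is no result. Eif1ax, H3f3a, Knop1, Mprip, Srsf2 and Tpt1 lay just inside, with a lowest count of 50, and Pabpc1, Ptges3 and Rpl7l1 were among those just outside, with a lowest count of 49. All but 2 members (Gm10076 and Gm17484) matched a gene of the GENCODE M21 annotation of the mouse genome (mm10, also called GRCm38). Some members held near-equal rows. In 1 library at 0 h the CDS counts were 1569 in Eno1 and 1545 in Eno1b, and 227 in Tpm3 and 222 in Tpm3-rs7. Whether such rows share reads was not tested, so the 218 members may not all be distinct.

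The cells were E14 mouse embryonic stem cells (mESC), a line of strain 129/Ola, held in 2i medium with LIF, which keeps them undifferentiated, and then moved to basal medium with 0.25 µM retinoic acid (RA). Unsorted cells were sequenced at 0 h (no RA) and at 96 h in 2 replicate libraries each, which the study's sample list gives to its differentiation runs 1 and 2 (run 1 and run 2), and at 6, 24, 36, 48 and 72 h in 1 library each. Cells sorted at 96 h gave 1 library of extraembryonic endoderm-like cells (XEN) and 1 of ectoderm-like cells (ECT). All groups come from the same line, no group carries a mutation, and a sorted fraction is defined by a pair of surface proteins, CD24 and PDGFRA. The sample annotation and the protocol text give the sort gates the opposite way round, so the groups follow the sample titles. Pdgfra stood at 677 counts per 1000000 RSEM counts of the library (CPM) in XEN and 224 in ECT, and Cd24a at 18.9 in XEN and 705 in ECT, which is the order the titles give. In unsorted cells a change of a level cannot be told apart from a change in the mixture of cell types.

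The 3' UTR follows the stop codon and ends at the site where the mRNA is cleaved and given its poly(A) tail. Many genes have more than one such site, so that the length of the UTR, and with it the sites for microRNAs and RNA-binding proteins, can differ between cell types. Genes on opposite strands often lie tail to tail and overlap in their 3' UTRs, and mouse 3' UTRs hold many copies of short interspersed repeats such as B2, which RNA polymerase III transcribes.

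Short stretches of sequence are shown first because the rows of some members followed the gene or the repeat that they belong to. The first set gives the annotated last 30 bases of 3 genes that lie tail to tail with a member on the other strand, each written 5′ to 3′ on its own strand, with the poly(A) signal AATAAA in capitals. Atp1b1 (minus strand, chr1:164437109-164437138) ends inside the 3' UTR of Nme7, Ilk (plus strand, chr7:105742896-105742925) inside that of Taf10 and Tcp1 (plus strand, chr17:12925038-12925067) inside that of Acat3. All positions are of mm10.
Atp1b1: acaacggacAATAAAagaatgaacacattc
Ilk: ctgtcacAATAAAgtttattatgaaaacag
Tcp1: tcagaAATAAAtctgcctgcctttgcctct

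AATAAA or ATTAAA was found on the gene's own strand in the last 30 bases of 43 of 53 protein-coding genes that overlap a member's 3' UTR from the other strand (81.1%), and in 62.5% of all 21759 protein-coding genes with a 3' UTR. A match to these letters is a description and not a measured cleavage site.

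The second set concerns one repeat. The most common 20-base word among the 100 highest 3' UTR rows of the table was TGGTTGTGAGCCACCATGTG. Its reverse complement, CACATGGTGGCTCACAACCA, is part of the B2 repeat, so a UTR with the word holds B2 in the orientation opposite to the gene. The genome held 45691 exact matches on both strands, all of them marked as repeat. The word, with up to 2 mismatches, is in capitals below as it lies on the strand of 5 members, with 5 bases on each side. The stretches lie in the 3' UTRs of Nisch (minus strand, chr14:31202863-31202892), Nop58 (plus strand, chr1:59715335-59715364), Hells (plus strand, chr19:38969681-38969710), Nop53 (minus strand, chr7:15937102-15937131) and Zfp933 (minus strand, chr4:147823776-147823805). The line for Chpt1 (minus strand, chr10:88471412-88471441) shows the other orientation, with the reverse complement in capitals.
Nisch: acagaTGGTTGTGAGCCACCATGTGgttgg
Nop58: atagaTGGTTGTGAGGCACCATGTGgttgc
Hells: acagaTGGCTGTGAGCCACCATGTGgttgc
Nop53: acgaaTGGTTGTGAGCCACCATGTGtttgc
Zfp933: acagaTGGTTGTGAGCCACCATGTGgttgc
Chpt1: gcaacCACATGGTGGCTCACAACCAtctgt

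Across the table, 248 of the annotated 3' UTRs (1.26%) held the word, 369 (1.88%) held its reverse complement and 20 held both. Among the annotated members these numbers were 9, 12 and 1.

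The region table held 2787943 (XEN) to 10211771 (48 h) counts per library. This was 9.81% to 29.0% of the expected counts per gene that RSEM, a program that assigns reads to transcripts, gave for the same libraries (28422965 to 36364330). The 36 h and 48 h libraries stood apart from all other pairs. Over 6153 rows with a mean of at least 50, their squared differences were 1.09 times those of counting noise, against 3.10 for the next closest pair, and in the gene-level counts this was 1.21 against 14.6. They carry different time labels and were kept apart, and results of the trend are given without them as well. No member differed between them by more than 1 on the log2 scale, with a median difference of 0.10 against 0.35 between the runs at 0 h and 0.39 between the runs at 96 h.

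The counts of a row were small beside the mRNA of the gene that gives it its name. For 5234 genes with a median RSEM count of at least 1000, CDS and 3' UTR rows together held a median of 2.51% of it. For the 218 members the median was 8.87%, with 114 members under 10% and 41 above 100%. Members whose own mRNA was nearly absent were also found: 15 had a median RSEM count under 100 and a median 3' UTR count of 352. The median over all 8933 genes at that level was 0. Members needed at least 50 counts in every row, so their higher share and count are in part set by that rule. The libraries were made with a kit that keeps the strand of the RNA, but the program, strand setting and annotation behind the region table are not given in the sources used here. The ratio reported below, log2 of the 3' UTR count over the CDS count, is therefore a ratio of 2 table rows, and nothing is read from it about the choice of poly(A) site.

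**Figure D1:**
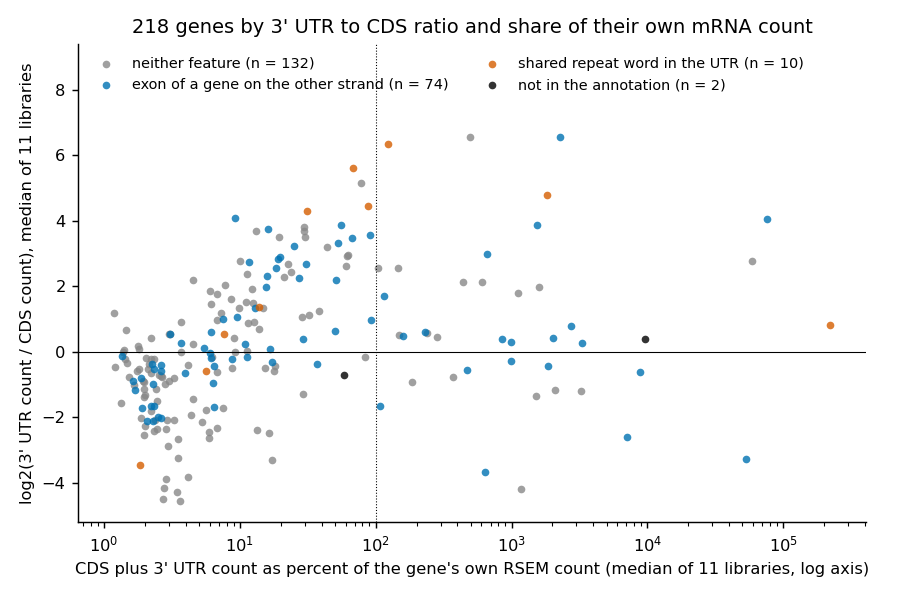
Each point is one of the 218 members, with the CDS plus 3' UTR count as percent of the gene's own RSEM count on the x axis (log axis) and the log2 ratio of 3' UTR over CDS count on the y axis, both as medians of 11 libraries. Colours give the 132 members with neither feature, the 74 with an exon on the other strand, the 10 with the repeat word and the 2 outside the annotation, and 41 points lie right of the dotted line at 100%.

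The members fell into classes by 2 features of the sequence that the count minimum did not use. The word, however, was picked as the most common one in the highest 3' UTR rows of the same table. The 3' UTR counts of its class, and with them its ratio and percent below, are therefore in part set by that choice. The word in the 3' UTR was held by 10 members, an exon of a gene on the other strand overlapped the CDS or the 3' UTR by at least 20 bases in 74 others, and 132 had neither. The median log2 ratio was 2.84 with the word, 0.25 with an overlap and -0.28 with neither, and the rows held a median of 49.5%, 16.3% and 5.99% of the gene's own RSEM count. Within the last class 81 members were under 10%. The length of the regions went little with the ratio: over the annotated members, r between the log2 ratio and the log2 of 3' UTR over CDS length was 0.17, as a description over genes. Per base of region, the median log2 ratio was -0.79.

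Among the 5 lowest members the median log2 ratio over the libraries was -4.57 in Npm1 (nucleophosmin, a ribosome assembly and histone chaperone), -4.48 in Eef1a1 and -4.17 in Eef2 (elongation factors), -4.27 in Tpt1 and -4.18 in Gm3839, a predicted gene. Npm1 held 1883 to 7639 CDS counts and 66 to 403 3' UTR counts per library, and its log2 ratio lay between -5.27 and -4.24. None of these 5 genes passed the tests below. Npm1, Eef1a1, Tpt1 and Eef2 held 2.71% to 3.66% of their own RSEM count, whereas the rows of Gm3839 held 1164%, so reads shared with a near-identical copy cannot be told apart there.

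At the other end, the 3' UTR row was far above the CDS row in Ddx23 (a splicing helicase), with a median log2 ratio of 6.57, in Bmp2k (a kinase) at 6.55, in Nisch (nischarin) at 6.35, in Nop58 (a core protein of box C/D small nucleolar particles) at 5.60 and in Slc3a2 (the heavy chain of an amino acid transporter) at 5.14. Ddx23 held 4982 to 19110 3' UTR counts and 60 to 173 CDS counts per library. The 3' UTR rows of Ddx23 and Bmp2k, on different chromosomes, moved together: the count of Ddx23 was 1.77 to 1.82 times that of Bmp2k in all 11 libraries. What both rows share was not tested.

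Many rows that overlap an abundant gene on the other strand followed that gene, and this was less common over all pairs. For 29 pairs in which a protein-coding gene with a median RSEM count of at least 1000 overlaps the 3' UTR of a member, the median r of the 3' UTR row over the 9 unsorted libraries was 0.87 with the opposite gene and 0.15 with the member's own mRNA, and it was higher with the opposite gene in 23 of 29 pairs. For 18 such pairs at the CDS the medians were 0.86 and 0.55, with 15 of 18 higher. All of these values come from the same libraries and depths and are descriptions. Across the pairs, the change of the row from 0 h to 96 h had an r of 0.83 (3' UTR) and 0.98 (CDS) with the change of the opposite gene, and of 0.22 and 0.32 with that of the member. Over all 52 UTR pairs with a protein-coding opposite gene of any level, the medians were 0.79 and 0.31. In 34 of these 52 pairs r was higher with the opposite gene. Over all 34 such CDS pairs the medians were 0.65 and 0.59, with 15 of 34 higher.

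**Figure D2:**
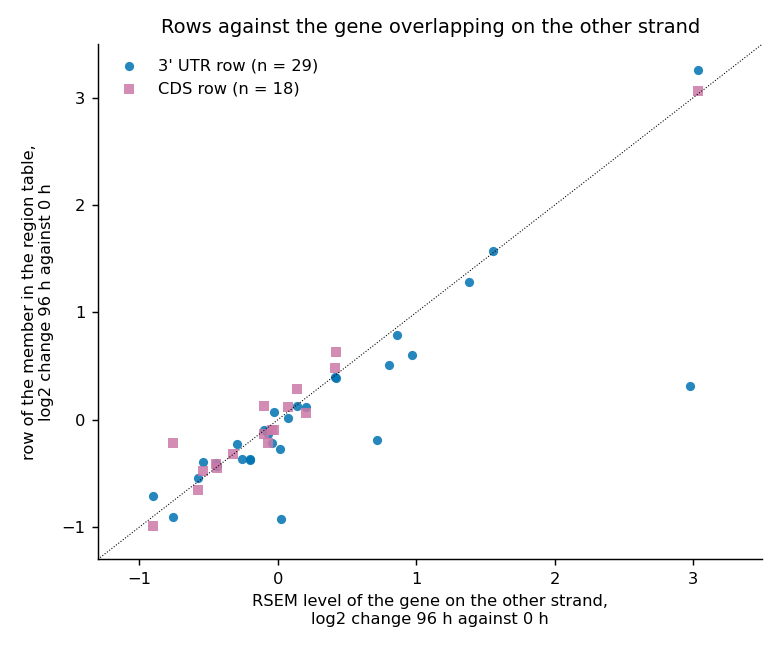
Each point is a pair of a member's row and a protein-coding gene that overlaps it on the other strand, with the log2 change from 0 h to 96 h of the opposite gene's RSEM level on the x axis and of the row on the y axis (means of 2 libraries per time). Circles are 29 3' UTR rows and squares 18 CDS rows, and most lie near the dotted line of equal change, with the 3' UTR row of Gdi2 farthest from it, at 0.32 against 2.98 for Fam208b.

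Nme7, a nucleoside diphosphate kinase family member (chr1:164304121-164437725, plus strand) was one of these members. Its 3' UTR row held 1045 and 1087 counts at 0 h, 590 at 6 h, 312 at 24 h, 294 at 36 h, 339 at 48 h, 1146 at 72 h, 1973 and 1886 at 96 h, 1871 in XEN and 1528 in ECT. The RSEM count of Atp1b1, the beta subunit of the sodium pump, was 5899 and 6514 at 0 h, 3461 at 6 h, 2112 at 24 h, 1695 at 36 h, 1956 at 48 h, 6853 at 72 h, 11786 and 11760 at 96 h, 11740 in XEN and 9002 in ECT. Both were low from 24 h to 48 h and stood above the 0 h libraries at 96 h (r = 1.00 over 9 libraries), while the RSEM count of Nme7 itself went from 1456 and 1442 at 0 h to 764 and 709 at 96 h. In log2 CPM, the row changed by 0.79 from 0 h to 96 h, Atp1b1 by 0.86 and Nme7 mRNA by -1.04. The CDS row of Nme7, the other part of the ratio, held 803 and 669 counts at 0 h and 367 and 248 at 96 h.

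Rtraf (chr14:19811351-19823824, minus strand), a factor in RNA transport and tRNA ligation, overlaps Nid2, a basement membrane protein, by 437 bases. Its 3' UTR row held 964 and 881 counts at 0 h, 1645 at 6 h, 773 at 24 h, 724 at 36 h, 779 at 48 h, 1335 at 72 h, 2113 and 2602 at 96 h, 2101 in XEN and 1836 in ECT. The row was high at 6 h, low from 24 h to 48 h and highest at 96 h and in the sorted cells, and r was 0.98 with Nid2 and -0.56 with Rtraf mRNA. From 0 h to 96 h the row changed by 1.28, Nid2 by 1.38 and Rtraf mRNA by -0.44. The CDS row of Rtraf held 215 and 250 counts at 0 h and 120 and 79 at 96 h, so both rows enter the change of its ratio. Taf10 (chr7:105739393-105744361, minus strand), a subunit of the transcription factor TFIID, overlaps Ilk, the integrin-linked kinase, by 2106 bases. Its 3' UTR row held 1655 and 1259 counts at 0 h, 1411 at 6 h, 1621 at 24 h, 2411 at 36 h, 2675 at 48 h, 4321 at 72 h, 5162 and 3919 at 96 h, 4655 in XEN and 4604 in ECT. The row was above both 0 h libraries from 36 h on, and its change of 1.57 from 0 h to 96 h lay beside 1.55 in Ilk and -0.07 in Taf10 mRNA. The CDS row of Taf10 held 168 and 122 counts at 0 h and 162 and 115 at 96 h.

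**Figure D3:**
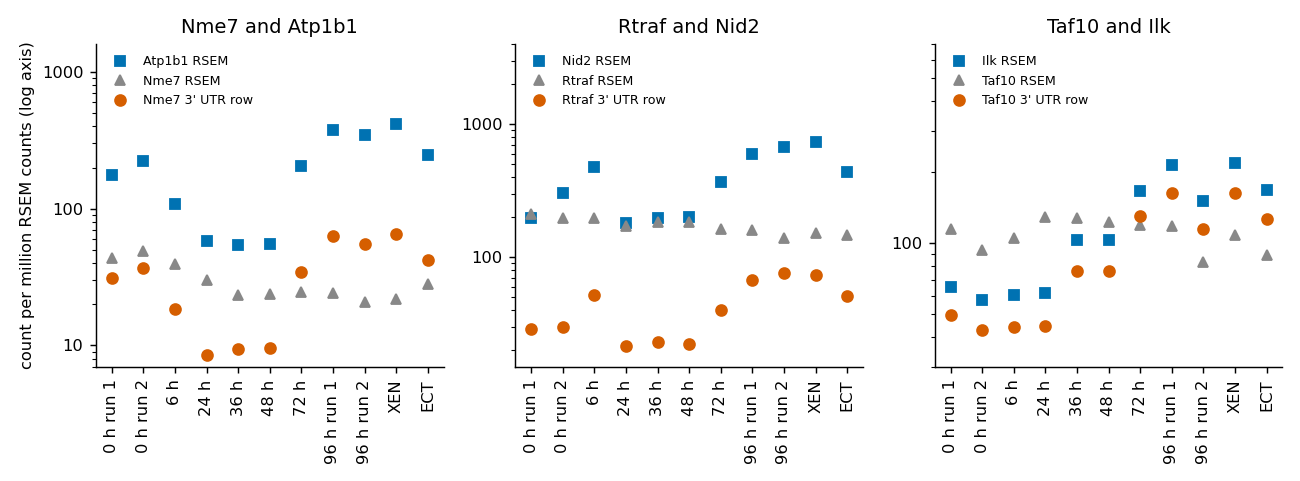
Level in CPM (log axis) in the 11 libraries for the 3' UTR row of Nme7, Rtraf and Taf10 (circles), the RSEM level of the same gene (triangles) and that of the gene on the other strand, Atp1b1, Nid2 and Ilk (squares). In each panel the circles run parallel to the squares, with r of 1.00, 0.98 and 1.00 over the 9 unsorted libraries, and not to the triangles.

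Acat3, an acetyl-CoA acetyltransferase, held a median of 4822 counts in its 3' UTR row with a median RSEM count of 4.53, and the row had an r of 0.99 with Tcp1, a subunit of the cytosolic chaperonin. Acat3 and its neighbour Acat2 are near-identical copies, so their counts are uncertain. In Gm20721, a predicted gene opposite to Gnas (the stimulatory G protein alpha subunit), the CDS row changed by 3.06 and the 3' UTR row by 3.26 from 0 h to 96 h, against 3.03 in Gnas, and the log2 ratio stayed between -3.91 and -3.51 in all libraries. The 3' UTR row of Cdk4, a cell cycle kinase, had an r of 0.98 with Tspan31 and of -0.37 with Cdk4 mRNA, and its log2 ratio lay between 2.75 at 24 h and 5.15 in XEN. The 6 of 29 pairs in which the 3' UTR row did not have the higher r with the opposite gene were Knop1 with Vps35l (r = -0.84), Cap1 with Ppt1 (-0.82), Sap18 with Ska3 (0.19), Gdi2 with Fam208b (0.30), Dnaja1 with Smu1 (0.60) and Serhl with Rrp7a (0.87). The 3 of 18 such CDS pairs were Kri1 with Atg4d (r = 0.24), Phykpl with Hnrnpab (0.79) and Serhl with Rrp7a (0.81). The 3' UTR row of Gdi2 changed by 0.32 from 0 h to 96 h, against 2.98 in Fam208b.

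The repeat word went with the height of the 3' UTR rows and with their course. Over all annotated 3' UTRs of the table, the median count was 1795 with the word, 412 with its reverse complement, 981 with both and 1.73 with none, whereas the medians of the CDS rows were 8.5, 6.73, 9.95 and 4.09. The exact word was in 57 of the 99 annotated UTRs among the 100 highest rows and in 19 of 14891 UTRs with a mean under 20, and the 100 highest rows held 44.2% of all 3' UTR counts. The word was itself found in those highest rows, so this comparison is a description of them. Summed over UTRs with the word, levels in CPM were 24272 and 27585 at 0 h, 35360 at 6 h, 66945 at 24 h, 125850 at 36 h, 126999 at 48 h, 32558 at 72 h, 16683 and 13033 at 96 h, 12094 in XEN and 15647 in ECT. The sum was highest at 36 h and 48 h, 2.29 above 0 h on the log2 scale, and at 96 h lay at -0.81 against 0 h.

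Members with the word took the same course. The 3' UTR row of Nop58 held 8486 and 7145 counts at 0 h, 9306 at 6 h, 18957 at 24 h, 27902 at 36 h, 30902 at 48 h, 8215 at 72 h, 4766 and 4225 at 96 h, 3476 in XEN and 5599 in ECT, while its CDS row stayed between 110 and 371. That of Hells, a chromatin remodeller, held 1622 and 1657 counts at 0 h, 2038 at 6 h, 3539 at 24 h, 4892 at 36 h, 5530 at 48 h, 2383 at 72 h, 1469 and 1430 at 96 h, 1079 in XEN and 1558 in ECT. Both were highest at 36 h and 48 h, the libraries that differed by 1.09 times counting noise. The centred log2 ratio, which is the log2 ratio minus the median of the 218 members in the same library, was higher at 36 h and 48 h than at 0 h by a median of 1.36 over the 10 members with the word, and by more than 1 in 6 of them. Over all members this median was 0.04, and 12 of 218 were above 1.

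**Figure D4:**
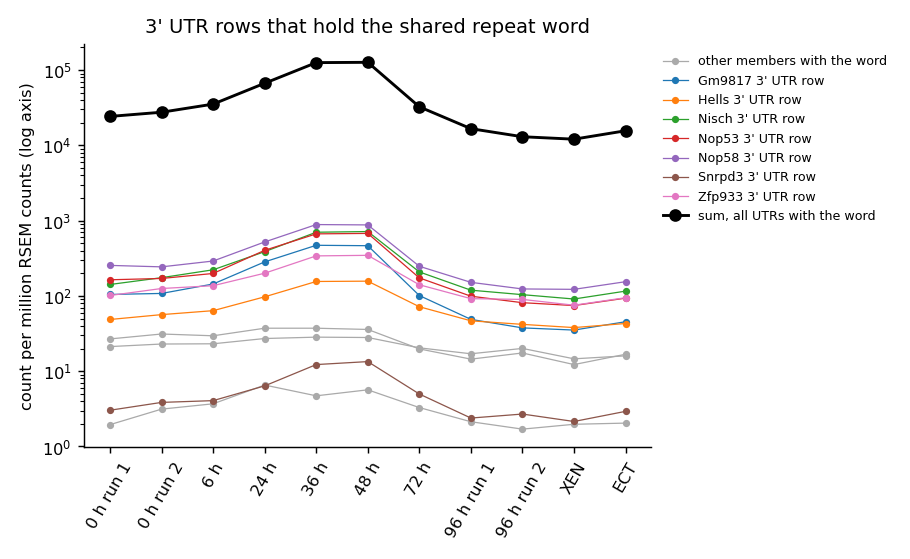
Levels in CPM (log axis) in the 11 libraries, for the 3' UTR rows of the 10 members with the repeat word (thin lines, with colours for the 7 whose r with the sum was above 0.95 and grey for the others) and for the sum over all 3' UTRs with the word (thick black line). The sum is highest at 36 h and 48 h, at 125850 and 126999, and the lines of most members, Nop58 and Nisch at their top, peak there too.

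Over the 9 unsorted libraries, 13 of 218 3' UTR rows had an r above 0.95 with this sum, and 7 of these 13 hold the word. The other 6 were Cnot1, Hmmr, Mapre1, Ncl, Prc1 and Qars, in which the word was not found in this orientation. Among CDS rows there were 4, those of Chpt1, Gtpbp3, Nme7 and Pxmp4, and the word or its reverse complement lies in the CDS of Chpt1 and Gtpbp3. In Nme7 the CDS row held 803 and 669 counts at 0 h, 3026 at 36 h and 3368 at 48 h, while its 3' UTR row was low there like Atp1b1, and the centred ratio at 36 h and 48 h differed from 0 h by -3.89. The log2 ratio of Nme7 was 0.38 and 0.70 at 0 h, -3.36 at 36 h and 2.43 and 2.93 at 96 h.

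Gm9817, a predicted gene (chr13:45078692-45081222, plus strand), joined both features. Its CDS overlaps the processed pseudogene Hsp25-ps1 on the other strand, and the parent of that pseudogene is Hspb1, a small heat shock protein. The CDS row held 9265 and 7001 counts at 0 h, 9178 at 6 h, 14111 at 24 h, 6041 at 36 h, 6616 at 48 h, 1381 at 72 h, 873 and 1400 at 96 h, 513 in XEN and 603 in ECT. In every library this was between 45.3% and 49.6% of the RSEM count of Hspb1, which itself went from 19468 and 14823 at 0 h to 1759 and 2940 at 96 h, while the RSEM count of Gm9817 was 9.70 at most. The 3' UTR row of Gm9817, with the word, held 3490 and 3168 counts at 0 h, 14802 at 36 h, 16357 at 48 h and 1535 and 1284 at 96 h. Reads of Hspb1 and of its pseudogene cannot be told apart in this table.

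The change of the ratio between 0 h and 96 h was tested with edgeR's quasi-likelihood test, 2 libraries against 2, on the 2765 genes with a mean above 10 in both rows, which all 218 members passed. A fitted change is relative to that of the typical gene tested, and the median over the members was 0.18. The ratio was higher at 96 h in 5 members (Rtraf, Nme7, Taf10, Gm9817 and Gm14443) and lower in 2 (Mprip and Cnot1) at an adjusted p under 0.05. Among all genes tested 4.12% were higher and 3.83% lower (7.96% in either direction), so the shares of the members (2.29% and 0.917%) were not above the background. At an unadjusted p under 0.05 there were 25 members. Of the 7, 4 had an exon on the other strand, 1 held the word and 2 had neither. Cell type markers moved between the same libraries: the summed level of 8 mESC markers was 3871 and 5206 CPM at 0 h and 113 and 235 at 96 h, that of 9 XEN markers 7.86 and 17.9 at 0 h and 12742 and 23217 at 96 h, and their part in the ratios was not tested.

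Rtraf changed most. Its log2 ratio was 2.16 and 1.82 at 0 h and 4.14 and 5.04 at 96 h, which is 1.99 ± 0.25 and 4.59 ± 0.64 (SD, n = 2), and the fitted change was 2.76 with an SE of 0.47 (edgeR adjusted p = 2.72e-07). It passed in 11 of 11 alternative fits. The ratio of Nme7 was 0.54 ± 0.23 at 0 h and 2.68 ± 0.35 at 96 h (SD, n = 2), with a fitted change of 2.31 and an SE of 0.48 (edgeR adjusted p = 4.97e-05), and of 11 alternatives it was lost with limma (adjusted p = 0.058). Taf10 went from 3.33 ± 0.05 to 5.04 ± 0.07 (SD, n = 2), a change of 1.88 with an SE of 0.49 (edgeR adjusted p = 0.0026). Its call was lost without run 1 at 0 h (adjusted p = 0.10) and without run 1 at 96 h (adjusted p = 0.072), and with limma (adjusted p = 0.092). In all 3 members the libraries of the 2 times did not overlap, which the rule for naming genes here required.

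The other 4 calls were each lost without single libraries, and each was also lost in some alternative fits that kept all 4 libraries. Of 11 alternatives, the call held in 4 for Gm9817, 4 for Gm14443, 6 for Mprip and 3 for Cnot1. In Gm9817 the change was 1.79 with an SE of 0.60 (edgeR adjusted p = 0.038), and without run 1 at 96 h it was 1.11 (adjusted p = 0.57). It was also lost without run 1 at 0 h (adjusted p = 0.18) and run 2 at 96 h (adjusted p = 0.055). With the run as a block its adjusted p was 0.17. Gm14443, a predicted zinc finger gene of a family with close copies (chr2:175166255-175175871, minus strand), went from -0.20 ± 0.08 to 1.14 ± 0.14 (SD, n = 2), a change of 1.5 with an SE of 0.44 (edgeR adjusted p = 0.012), and adjusted p was 0.27 without run 1 at 96 h, 0.23 without run 1 at 0 h and 0.063 without run 2 at 0 h. Its 3' UTR is 65.8% repeat. Mprip, a partner of myosin phosphatase (chr11:59661305-59780860, plus strand), went from 4.70 ± 0.62 to 2.94 ± 0.11 (SD, n = 2), a change of -1.57 with an SE of 0.47 (edgeR adjusted p = 0.012), and without run 1 at 0 h, where its CDS row held 50 counts, adjusted p was 0.42 (0.073 without run 2 at 0 h and 0.20 without run 2 at 96 h). The CDS row of Mprip had an r of 0.72 with its own mRNA, and its 3' UTR row an r of -0.33. With Gm12264 on the other strand the 3' UTR row had an r of 0.00. Gm12264 held at most 5.07 RSEM counts in a library, too few for that r to be read. Cnot1, the scaffold of the CCR4-NOT deadenylase (chr8:95719451-95807464, minus strand), changed by -1.29 with an SE of 0.44 (edgeR adjusted p = 0.044), and no fit that left out 1 of the 4 libraries kept the call (adjusted p from 0.073 to 0.78, the highest without run 1 at 0 h, where the change was -0.76).

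**Figure D5:**
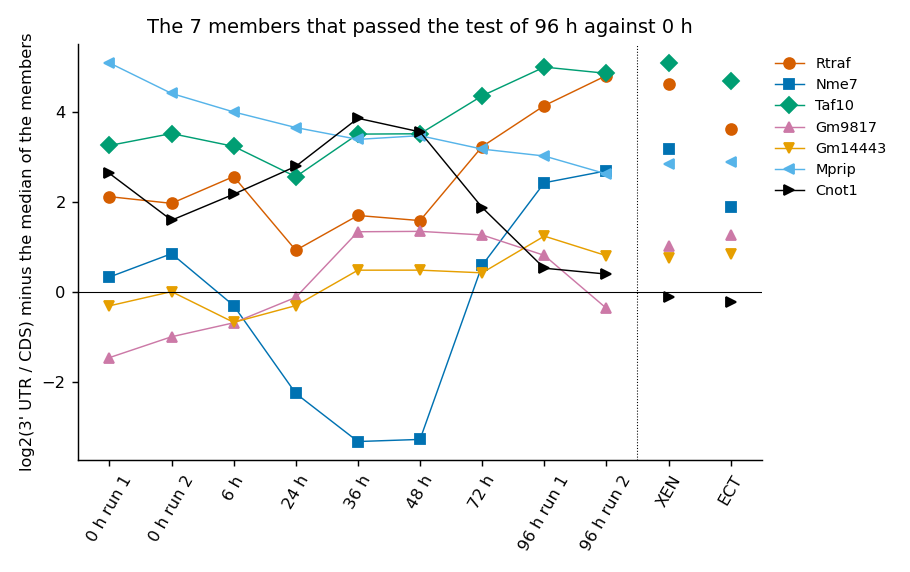
Centred log2 ratio (3' UTR over CDS count minus the median of the 218 members) in the 11 libraries for the 7 members that passed the test of 96 h against 0 h, with lines joining the unsorted libraries. Rtraf and Taf10 end highest, Nme7 lies below -3 at 36 h and 48 h, and Cnot1 is highest at 36 h.

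Separation alone was common. The centred ratios of the 2 times did not overlap, with 96 h higher, in 27 members (12.4%, against 12.4% of all genes tested). They did not overlap with 96 h lower in 62 members (28.4%, against 34.6% of all genes tested). All genes were centred on the median of the 218 members, which was 0.17 higher at 96 h. Under the scaling of the test, 4.12% of all genes were called higher and 3.83% lower. The part of the centring in the lean to lower was not tested. Between single libraries, the median difference of the centred ratio over the members without regard to sign was 0.31 to 0.52 for 0 h against 96 h, with 25 to 36 members past 1, and 0.35 and 0.39 between the runs at 0 h and at 96 h, with 13 and 10 members past 1. Genes with the course most like that of Rtraf over the 9 unsorted libraries were Taf10 (r = 0.92), Hmgb2 (0.89), Ash2l (0.88), Ebna1bp2 (0.87) and Nme7 (0.85).

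A linear trend over the hours of RA was fitted to the 9 unsorted libraries with the same test. It was upward in 5 members (Rtraf, Taf10, Gm14443, Gtpbp4 and Mcm5) and downward in 2 (Mprip and Bmp2k) of 218, against 3.42% and 3.39% (6.8% in either direction) of the 3571 genes tested. With the run as a block these numbers were 9 and 5. The slope per 96 h was 2.63 in Rtraf with an SE of 0.57 (edgeR adjusted p = 0.0085) and 1.99 in Taf10 with an SE of 0.39 (edgeR adjusted p = 0.0047). Rtraf lost the call without run 1 or run 2 at 96 h (adjusted p = 0.069 and 0.089), and Taf10 kept it whichever single library was left out. Gtpbp4 (ribosome assembly) had a slope of 1.23, Mcm5 (replicative helicase) of 1.09 and Bmp2k of -1.81, and each of these calls was lost without 6 h, 72 h or either library of 96 h. That of Mcm5 was also lost without either library of 0 h, 36 h or 48 h. The slope of Gm14443 was 1.59 (lost without run 1 at 96 h, edgeR adjusted p = 0.053) and that of Mprip -1.39 (lost without run 2 at 0 h, 72 h or run 2 at 96 h, edgeR adjusted p = 0.056 to 0.11). The slope of Nme7 was 2.67 with an SE of 1.34 (edgeR adjusted p = 0.31). With 36 h and 48 h left out together it passed (2.61, edgeR adjusted p = 0.0070), Mcm5 did not (1.09, edgeR adjusted p = 0.059), and the other 6 members kept their calls.

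The course was not straight. The names of the read files carry one suffix for 0 h to 36 h and another for 48 h to 96 h, and suffix and time cannot be told apart across that step. Within 0 h to 36 h the slope per 96 h was -1.81 in Rtraf, -0.065 in Taf10 and -10.10 in Nme7 (edgeR adjusted p = 0.63, 0.99 and 6.49e-07). Within 48 h to 96 h it was 5.84, 2.93 and 11.46 (edgeR adjusted p = 2.47e-07, 0.029 and 6.54e-15). All 3 ratios rose after 48 h. Atp1b1, Nid2 and Ilk were then higher than at 48 h, and the CDS rows of the 3 members were lower. The CDS row of Nme7 held 3368 counts at 48 h and 367 and 248 at 96 h. That of Rtraf held 267, then 120 and 79, and that of Taf10 241, then 162 and 115. The rises therefore hold a change of both rows. Cnot1 went the other way, with 4.77 within 0 h to 36 h and -5.99 after 48 h.

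XEN and ECT had 1 library each, so their difference has no test, and the intervals (95%) cover counting error only. The centred log2 ratio was more than 1 higher in XEN in 6 members (Cdk4, Kri1, Nisch, Nme7, Plppr3 and Rtraf) and in ECT in 1 (Fmo1), against 6.63% and 4.76% (11.4% in either direction) of the 2247 genes with over 10 counts in these rows. Without centring, 2 members were past 1 in XEN and 6 in ECT, so the lean of these counts turns with the scaling. Nisch differed by 1.40 (0.995 to 1.80), Nme7 by 1.29 (1.03 to 1.56) and Rtraf by 1.02 (0.616 to 1.42). The Nme7 3' UTR row was 0.64 higher in XEN in log2 CPM, beside 0.73 for Atp1b1, and the Rtraf row 0.54 higher, beside 0.76 for Nid2. Fmo1, a flavin monooxygenase, differed by -1.02 (-1.29 to -0.762), and only Nme7 and Fmo1 of these 7 held 200 counts or more in every row. With that minimum, Chpt1 (0.58), Itgam (0.41) and Tcp1 (0.40) were among those that came after Nme7 in XEN, and Ap2m1 (-0.999), B430218F22Rik (-0.44) and G3bp1 (-0.42) followed Fmo1 in ECT. The summed level of 8 ECT markers was 1459 CPM in ECT and 109 in XEN. The ECT library also held 7136 CPM of the 9 XEN markers, against 12965 in XEN. The summed level of 8 fibroblast markers was 2.19 CPM in XEN and 271 in ECT, where Acta2 alone stood at 223. The part of these lists in the differences of the ratio was not tested.

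The mRNA level of the members by RSEM was tested in the same 4 libraries. Of 212 members that passed the filter, 8 were higher at 96 h and 20 lower, against 16.3% and 13.2% (29.5% in either direction) of the 15851 genes tested. With the run as a block they were 24 and 70. Among those higher were P4hb, an endoplasmic reticulum disulfide isomerase (log2 change 2.08, SE 0.36, edgeR adjusted p = 0.012), Nisch (1.03) and Bmp2k (1.54). Among those lower were Mcm5 (-1.52), Hells (-1.45), the chaperone Hsp90aa1 (-1.60) and Nme7 (-1.15). Mcm5 mRNA fell while its 3' UTR to CDS ratio rose along the trend, and neither Rtraf (-0.56, edgeR adjusted p = 0.17) nor Taf10 (-0.17, edgeR adjusted p = 0.73) passed at the level of mRNA.

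None of the members is on the lists for naive pluripotency, extraembryonic endoderm, neuroectoderm or RA response, or among the markers of fibroblasts, mesoderm and trophoblast. Over all genes tested, the ratio was higher at 96 h in 4.12% and lower in 3.83%. On these lists it was higher in 2 of 12 tested for naive pluripotency (median change 0.15). The 2 were Nanog and Tfcp2l1, and Nanog stood at 703 and 986 CPM at 0 h but at 1.53 and 17.2 at 96 h. The ratio was lower in 3 of 16 for extraembryonic endoderm (median -0.65) and in 3 of 5 for neuroectoderm (median -2.65). None was higher in these 2 lists. None of 3 passed for RA response (0 at an unadjusted p under 0.05). Of the trophoblast markers only Krt7 was tested, and it was lower (-5.22). A gene passed the filter on its mean over both times, so it could pass through the time at which it was high. The median mRNA change over the whole list was -4.97 for naive pluripotency, 8.13 for extraembryonic endoderm and 3.56 for neuroectoderm. A ratio at the time of low level can rest on few counts. Nothing is therefore read from the shares and medians of these lists. Genes near absent at 0 h were among those called lower. At 0 h Sox7 stood at 0.03 and 1.02 CPM and Krt7 at 0.30 and 0.87. Secreted and membrane proteins had 1 higher and 3 lower of 25, cell cycle genes 2 higher and 1 lower of 15, genes with known tandem poly(A) sites 1 and 1 of 16, and oxidative phosphorylation 1 higher of 8. Of 23 RNA-binding regulators of poly(A) site choice 5 are members, among them Ptbp1, Hnrnpc, Srsf3 and U2af2, and none of the 11 tested passed edgeR's test for the ratio at 96 h, with 0 at an unadjusted p under 0.05 (median change -0.11, against 0.06 over all genes tested). The cleavage and polyadenylation machinery had 10 of 22 genes tested and none called, with 0 at an unadjusted p under 0.05 (median -0.07), and the only member on that list is the phosphatase Ppp1ca. Of 75 cytosolic ribosomal proteins 15 were tested and none called, with 1 at an unadjusted p under 0.05 (median 0.09), with Rpl23, Rps15a and Rps20 as members, and of 24 cytoskeletal genes 17 were tested and none called, with 4 at an unadjusted p under 0.05 (median 0.05), with Actb among the 5 members. On the microRNA pathway list Cnot1 was the 1 call among 12 tested. The modelled microRNA targets Eif4h (-0.02, SE 0.46, edgeR adjusted p = 0.995) and Rab8a (-0.25, SE 0.45, edgeR adjusted p = 0.93) did not pass.

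The median log2 ratio over the 218 members ranged from -0.34 at 24 h to 0.23 at 96 h in run 2. It was -0.05 ± 0.14 at 0 h and 0.12 ± 0.17 at 96 h (SD, n = 2), a difference of 0.17 (exact two-sided permutation test, p = 0.667, where the smallest p that 2 against 2 libraries allow is 0.333). Leaving out 1 library moved this difference to between 0.05 and 0.29, and for the 25 members with 200 counts or more in every row it was 0.65 (0.20 ± 0.11 at 96 h, -0.45 ± 0.01 at 0 h, SD, n = 2, exact permutation p = 0.333). The 3' UTR rows held 71.2% (XEN) to 83.8% (36 h) of the counts of a library.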

How the data were processed

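RNA of unsorted and sorted cells was sequenced as 40-base single-end reads with a stranded mRNA kit. The authors deposited counts of reads per CDS and 3' UTR in one table for 11 libraries, whose program, strand setting and annotation are not given in the sources used here, and expected counts per gene, made with RSEM 1.2.28 and Bowtie2 2.2.6 on mm10 per the labels (submitters' processing notes). Expected counts were rounded for testing.

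Members had at least 50 counts in both rows in all 11 libraries. The members and gene lists were chosen with earlier results of these data known. Replicates 1 and 2 pair the samples across times, because the study's sample list gives their read files to differentiation runs 1 and 2. The deviations of run 2 from run 1 at 0 h and at 96 h had an r of 0.10 across members and 0.23 across genes at the mRNA level.

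The ratio was tested in edgeR 4.0.16 (glmQLFit, glmQLFTest, R 4.3.3) with 1 intercept per library and region by time as the tested term, TMM factors set for each region, a mean count above 10 in both rows, Benjamini-Hochberg adjustment over all genes tested and a threshold of 0.05. Alternatives used DESeq2 1.42.0, limma 3.58.1 (0.5 added to counts), other scalings and filters, a run block and leaving out libraries. Scripts were tested on simulated data. Overlaps with GENCODE M21 exons on the other strand needed 20 bases. The word was searched on both strands with up to 2 mismatches, and its class was given by the 3' UTR strand. Levels used 0.5 added to counts, per 1000000 RSEM counts, and r is Pearson's over log2 values. Genes named in the text are the members past the threshold with separated times (up to 10 per direction), the 5 steepest trends per direction, the 8 largest XEN and ECT differences per direction at 200 counts or more, the 5 highest and lowest ratios, listed genes that passed, the modelled microRNA targets and the 5 genes most like the largest rise. Members in the account of opposite genes and of the repeat word, and the XEN and ECT members past 1 with fewer counts, were chosen after their values were seen. Some items that the rule names are not reported here.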

Additional observations from a re-analysis of the deposited data

How the results depend on the processing

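Counts of members called for the ratio at 96 h against 0 h (5 higher, 2 lower) were 3 and 1 when both regions shared 1 library size, 1 and 0 with limma, 3 and 0 with no filter on low counts, 1 lower with DESeq2 and 5 lower with the members alone fitted. Over all genes tested (220) they were 141 with a shared size, 128 with DESeq2 and 67 with limma. For the trend (5 upward, 2 downward of the members) they were 2 and 1 with a shared size, 11 and 7 with DESeq2, 3 and 1 with limma, 5 downward with the members alone, and 9 and 12 within 48 to 96 h. Over all genes (243) there were 506 with no filter and 102 within 0 to 36 h. With 36 h and 48 h left out together, an alternative chosen after seeing the data, 10 members went upward. At the mRNA level (8 higher, 20 lower) DESeq2 gave 13 and 35. For XEN against ECT (6 and 1), a difference past 1.5-fold was met by 16 and 13 members, 2 and 6 were past 1 without centring, and 1 was past it in XEN at 200 counts or more. The shift of the library median (0.17) was 0.65 at 200 counts or more and -0.18 for summed counts. The cause of these differences was not tested. Within 0 to 36 h the slope was reversed in Rtraf (-1.81), Nme7 (-10.10), Taf10 (-0.065), Cnot1 (4.77) and Gtpbp4 (-0.50).

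With the run as a replicate block, the pairing left 4 members higher and 2 lower at 96 h (218 genes in all), 9 and 5 for the trend, and 24 and 70 at the mRNA level (7437 genes in all against 4682). Of the members named for the ratio it changed the call of Gm9817 alone.

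Leaving out 1 library at a time gave 2 to 4 members higher and 0 to 1 lower at 96 h (111 to 151 genes in all), 2 to 7 upward and 0 to 3 downward for the trend (131 to 263 in all), 3 to 6 higher and 2 to 12 lower at the mRNA level (2512 to 4362 in all), and a shift of the library median from 0.05 to 0.29. With 1 library left in a group, that library is assumed to vary like the others.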

Other observations

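Of the 132 members with neither an exon on the other strand nor the repeat word, 51 held at least 10% of their own RSEM count in the 2 rows. Their median log2 ratio was 1.48, against -0.76 in the 81 members under 10%, their median RSEM count was 2370, against 18804, and their 3' UTRs were 24.1% repeat, against 15.4%. Since every row holds at least 50 counts, a gene of low level is above 10% more readily. The median r of the 3' UTR row with the gene's own mRNA over the 9 unsorted libraries was 0.43 in the 51 and 0.52 in the 81, against 0.16 in the 44 members with an exon on the other strand and at least 10%, and 0.04 in the 7 such members with the word. What the rows of the 51 hold was not tested.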
